A study of Mus musculus with 12 samples.

Results

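Mme, Slc6a12 and Tspan17 are 3 of the 14851 genes listed in the RNA-sequencing tables of control and autophagy-deficient vascular tumor cells, and each encodes a protein of the cell membrane. They were selected on their RPKM values in these libraries, as the most even decreases from control cells across the 3 knockouts, so their levels in knockout (KO) against control cells are given here as a description and carry no test. All 12 libraries came from 562 cells, an immortalized mouse line (C57BL/6) cultured from a vascular tumor in which tamoxifen-induced Scl-Cre had deleted Tsc1, an inhibitor of mTORC1, in endothelial cells. The control cells therefore lack Tsc1 as well, although GEO lists their genotype as wildtype and all 12 samples as lymphatic endothelial cells. Each KO line had in addition received Cas9 and a guide RNA by lentivirus, followed by puromycin selection, with control cells that carried a guide against EGFP. Fip200 KO removes the scaffold of the complex that starts autophagy, and Atg5 KO and Atg7 KO remove parts of the machinery that joins LC3 to lipid. The study names 2 clones of Fip200 KO cells, and which clone each of the 3 libraries came from is not given in the sources used here. Each of the 4 groups held 3 libraries, and the p-values below measure only the spread between these samples of 1 cell line.

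Mme encodes neprilysin (CD10), a zinc metallopeptidase of the M13 family whose active site faces the outside of the cell, where it cleaves small peptides such as bradykinin, natriuretic peptides, endothelins and neuropeptides. Slc6a12 encodes BGT1, a sodium- and chloride-coupled transporter that carries betaine and GABA into cells and is known from the kidney medulla, where betaine is one of the osmolytes that balance high salt. Tspan17 encodes a tetraspanin with 4 membrane-spanning segments, of the TspanC8 group that binds the protease ADAM10 and helps it leave the endoplasmic reticulum and reach the cell surface.

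The 3 genes lie on different chromosomes, and no other GENCODE vM21 gene overlaps any of them. In that annotation of the GRCm38 build, Mme (gene ID 17380) spans chromosome 3 from 63241537 to 63386030, Slc6a12 (gene ID 14411) chromosome 6 from 121343076 to 121365775, and Tspan17 (gene ID 74257) chromosome 13 from 54789377 to 54796776, all on the plus strand. Because the genes were low in the same libraries, the 250 bases before their most upstream RefSeq transcript starts are shown (GRCm38.p6, plus strand), which lie at chr3:63294961-63295210, chr6:121342324-121342573 and chr13:54789155-54789404. The annotations place the starts differently, so the Mme window lies inside the GENCODE span of Mme. The end of the Tspan17 window likewise lies inside that of Tspan17. Capitals mark matches, on either strand, to the GC box (GGGCGG), the CCAAT box (CCAAT), the TATA box (TATAAA), the E-box (CACGTG), the AP-1 site (TGANTCA), the STAT site (TTCNNNGAA) and the TonE, the element bound by the osmotic stress factor NFAT5.
Mme: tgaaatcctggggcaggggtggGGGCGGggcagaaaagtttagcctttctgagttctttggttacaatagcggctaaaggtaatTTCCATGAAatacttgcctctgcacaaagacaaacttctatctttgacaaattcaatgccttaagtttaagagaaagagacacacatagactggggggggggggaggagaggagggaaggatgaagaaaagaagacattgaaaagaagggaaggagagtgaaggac
Slc6a12: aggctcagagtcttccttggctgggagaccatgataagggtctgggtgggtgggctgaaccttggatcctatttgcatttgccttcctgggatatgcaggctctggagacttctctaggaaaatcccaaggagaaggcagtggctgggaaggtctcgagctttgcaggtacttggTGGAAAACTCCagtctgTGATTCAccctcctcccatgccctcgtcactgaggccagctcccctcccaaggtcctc
Tspan17: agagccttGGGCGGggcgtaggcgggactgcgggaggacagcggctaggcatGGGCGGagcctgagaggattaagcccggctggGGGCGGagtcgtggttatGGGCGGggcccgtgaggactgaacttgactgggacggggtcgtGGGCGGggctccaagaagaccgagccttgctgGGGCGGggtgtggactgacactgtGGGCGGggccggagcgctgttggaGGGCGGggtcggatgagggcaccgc
The most upstream windows differed in base composition and motifs. Tspan17 held 8 GC boxes and 22 CpG, with a GC content of 70.8%, above 91.7% of the 32841 RefSeq windows of the same length. Mme had a GC content of 45.6%, 2 CpG, 1 GC box and 1 STAT site, and RefSeq lists a pair of further Mme starts downstream whose windows had 27 CpG and 2 GC boxes each, with GC contents of 73.2% and 73.6%, and of which the last also held an AP-1 site. Slc6a12 had a GC content of 55.6%, 2 CpG, 1 TonE and 1 AP-1 site, none of its other 4 RefSeq starts had a match to any of the 7 motifs, and no motif was found in all 3 windows shown. Of all windows, 32.8% held a GC box, 4.31% a TonE, 6.75% an AP-1 site and 7.02% a STAT site. A match describes letters and is no sign of a bound factor.

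Libraries held 17266926 to 23629730 reads on listed genes, as recovered from the deposited RPKM values (reads per kilobase of gene, scaled to library depth). The 10 endothelial marker genes were all listed and summed to 1146 to 2740 RPKM in control libraries, lowest in control 2, and to 1830 to 2913 RPKM in KO libraries. Of the 9 tested with limma, where a call needed an adjusted p no larger than 0.1 and a log2 fold change of 1 or more in either direction, Flt1 (a VEGF receptor) was called lower in Fip200 KO (−3.66, adjusted p = 0.0995 from limma) and Atg7 KO cells (−2.99, adjusted p = 0.0196), and Cdh5 (VE-cadherin) and Kdr (another VEGF receptor) were called higher in Atg5 KO cells (1.28 and 1.35, limma adjusted p = 0.0376 and 0.0878). The 4 lymphatic endothelial markers were listed as well and summed to 219 to 821 RPKM, with Lyve1 called higher in Atg5 KO (adjusted p = 0.0480 from limma) and Atg7 KO cells (adjusted p = 0.0947), at means of 113 RPKM in control and 249 and 226 in these KO cells. The RNA levels of the targeted genes gave an uneven check of the labels. The paper checked the knockouts themselves by western blot of the proteins. Atg7 was at 18.4, 25.0 and 19.8 RPKM in control cells and at 5.40, 2.64 and 8.34 in Atg7 KO cells. It also lay below every control in the Atg5 KO libraries (9.99, 11.9 and 9.94 RPKM) and in Fip200 KO 2 and 3 (12.4 and 8.23), so a low Atg7 level was not particular to the Atg7 KO label. The KO libraries overlapped the controls for Rb1cc1 (the gene of Fip200) in Fip200 KO cells and for Atg5 in Atg5 KO cells. Library names carry 1 of 3 prefixes whose meaning is not given: FY (control 1 and all Fip200 KO libraries), JG (control 2 and 3, Atg5 KO 1 and 2) and Yang (Atg5 KO 3 and all Atg7 KO libraries), so that no control shares a prefix with Atg7 KO cells.

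Mme, the neprilysin gene, was at 18.8, 13.8 and 17.0 RPKM in the 3 control libraries, counted from 2282, 2089 and 2145 reads. In Fip200 KO cells it was at 0.253, 0.249 and 0.0214 RPKM, in Atg5 KO cells at 0.397, 0.273 and 0.0145, and in Atg7 KO cells at 0.0272, 0.429 and 0.337. All 9 KO libraries lay far below the controls, and the lowest control was 32.2 to 54.7 times the highest library of a KO group. The control mean was 16.5 ± 2.53 RPKM (SD, n = 3). Fip200 KO cells averaged 0.174 ± 0.132, Atg5 KO cells 0.228 ± 0.195 and Atg7 KO cells 0.264 ± 0.210 RPKM, which left 1.05%, 1.38% and 1.60% of the control level. On the log2(RPKM + 0.5) scale, which understates changes of low values, the fold changes were −4.67 (standard error 0.268), −4.58 (0.244) and −4.51 (0.267). In bulk RNA, fewer cells with a transcript and less of it in each cell cannot be told apart.

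Slc6a12, the betaine and GABA transporter gene, was at 12.4, 20.8 and 10.1 RPKM in control cells (612, 1274 and 515 reads). Fip200 KO libraries had 0.409, 0.0958 and 0.105 RPKM, Atg5 KO libraries 0.0599, 0.262 and 0.0178, and Atg7 KO libraries 0, 0.127 and 0.113. No KO library came near the controls, and at most 21 reads fell on the gene in any of them. The listed 0 in Atg7 KO 1 had an upper exact Poisson 95% limit of 0.0824 RPKM. Group means were 14.4 ± 5.64 RPKM (SD, n = 3) in control cells against 0.203 ± 0.178, 0.113 ± 0.131 and 0.0801 ± 0.0697 in Fip200, Atg5 and Atg7 KO cells, with control means 71.0, 127 and 180 times as high. The log2 fold changes were −4.37 (standard error 0.344), −4.56 (0.295) and −4.63 (0.292).

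Tspan17, the TspanC8 tetraspanin gene, was at 10.4, 22.1 and 16.9 RPKM in control cells (306, 814 and 519 reads). The first and second Fip200 KO libraries were listed at 0, with upper exact Poisson 95% limits of 0.120 and 0.118 RPKM, and Fip200 KO 3 had 0.439 RPKM from 15 reads. Atg5 KO libraries kept 0.832, 1.31 and 0.149 RPKM and Atg7 KO libraries 0.112, 0.740 and 1.04. Tspan17 thus kept more of its transcript in the LC3 conjugation knockouts than Mme and Slc6a12 did, at 4.64% of the control mean in Atg5 KO and 3.83% in Atg7 KO against 0.890% in Fip200 KO cells. The control mean of 16.5 ± 5.89 RPKM (SD, n = 3) was 112 times that of Fip200 KO (0.147 ± 0.254), 21.6 times that of Atg5 KO (0.764 ± 0.584) and 26.1 times that of Atg7 KO cells (0.630 ± 0.473). Its log2 fold changes were −4.72 (standard error 0.387), −3.81 (0.427) and −3.95 (0.411).

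**Figure D1:**
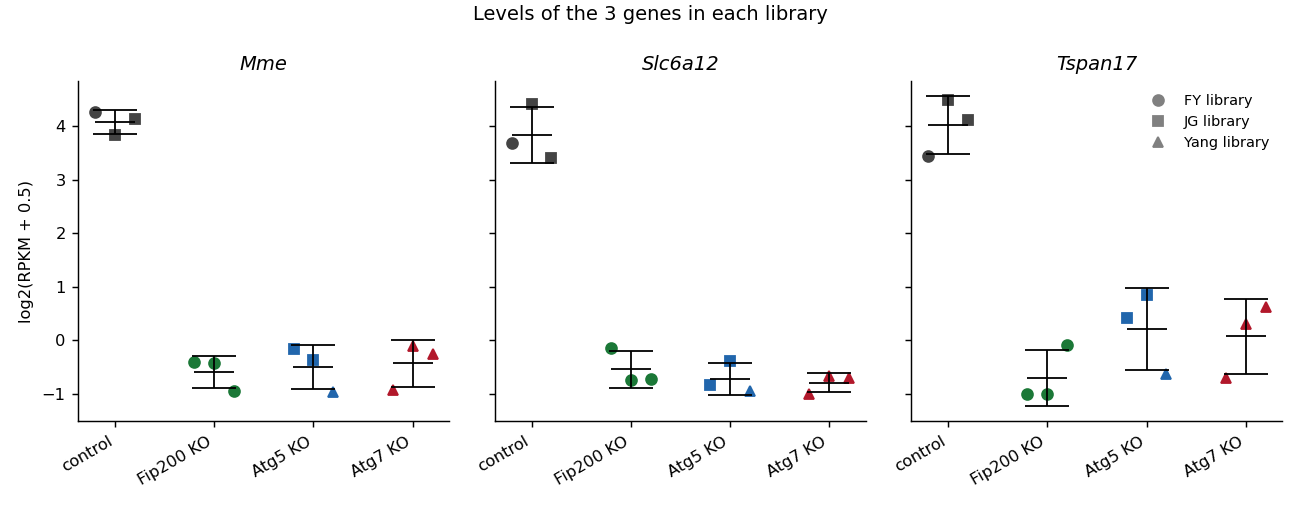
Levels of Mme, Slc6a12 and Tspan17 as log2(RPKM + 0.5) in the 12 libraries, with 1 symbol per library (its shape gives the prefix of the library name) and a line with bars for the mean ± SD of each group of 3. The controls sit between 10.1 and 22.1 RPKM for all 3 genes, and every KO library lies at 1.31 RPKM or less.

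Over all genes, a gene was called where limma's moderated test gave a Benjamini-Hochberg adjusted p no larger than 0.1 and the log2 fold change was 1 or more in either direction. By this rule 1.64% of the genes tested were called lower without Fip200, 6.94% without Atg5 and 6.81% without Atg7. Calls in the other direction covered 0.347%, 4.31% and 3.29%. The 3 members were selected on these values, and Mme, Slc6a12 and, in Fip200 KO cells, Tspan17 passed the filter on low values through the control libraries alone, so no call is read for them. The median log2 fold change of the 3 genes was −4.67, −4.56 and −4.51, beside medians over all genes tested of 0.016, 0.055 and −0.0080. Counted from the lowest of 11803 genes, Tspan17, Mme and Slc6a12 stood at ranks 8, 9 and 12 in Fip200 KO cells. Mme, Slc6a12 and Tspan17 held ranks 7, 8 and 19 of 11833 in Atg5 KO cells, and Slc6a12, Mme and Tspan17 ranks 13, 14 and 20 of 11784 in Atg7 KO cells. The 3 comparisons share their control libraries, so these ranks are not independent of each other.

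The members were selected on these same libraries, so a decrease within a prefix of the library names was set by that choice, and the values are given for their size. Among FY libraries, with 1 control and 3 Fip200 KO, the log2 differences were −4.86 for Mme, −4.23 for Slc6a12 and −4.14 for Tspan17. Among JG libraries, with 2 controls and 2 Atg5 KO, they were −4.25, −4.52 and −3.68. No Yang library is a control, so Atg7 KO cells had no such value. A fit to all 12 libraries with the prefix as a term, which rests on Atg5 KO 3 to tie the Yang libraries to the others, gave −3.72, −4.36 and −2.98 for Mme, Slc6a12 and Tspan17 in Atg7 KO cells. The 3 KO lines overlapped each other for all 3 genes, and the largest difference in means was that of Tspan17, higher in Atg5 KO than in Fip200 KO cells by 0.91 and in Atg7 KO than in Fip200 KO cells by 0.77 on the log2 scale.

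What was left of Mme and Tspan17 differed between the libraries of each KO line, as no pair of replicate libraries was alike within counting noise over all genes. The counting limits of Slc6a12 overlapped among the Atg7 KO libraries, at 0, 6 and 6 reads, but not among all libraries of the other KO lines. Fip200 KO 1 had a lower limit of 0.253 RPKM, above the upper limits of 0.2235 and 0.2296 in Fip200 KO 2 and 3. Atg5 KO 2 had a lower limit of 0.143 RPKM, above the upper limit of 0.0994 in Atg5 KO 3. Mme had 3 reads in Fip200 KO 3, with exact Poisson 95% limits of 0.0044 to 0.0625 RPKM, against 32 reads in each of Fip200 KO 1 and 2, with lower limits of 0.173 and 0.170 RPKM. Atg5 KO 3 and Atg7 KO 1 were the lowest libraries of their groups for all 3 genes. In Atg5 KO 3 these were 2 reads of Mme, 1 of Slc6a12 and 5 of Tspan17, and in Atg7 KO 1 they were 3, 0 and 3. Fip200 KO cells had no such order, since Fip200 KO 3 was lowest for Mme and the only one with reads of Tspan17, whereas Slc6a12 was highest in Fip200 KO 1 at 21 reads. As a share of the control mean, single KO libraries kept 0.087% to 2.59% of Mme, 0% to 2.83% of Slc6a12 and 0% to 7.96% of Tspan17. These limits cover counting error only.

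**Figure D2:**
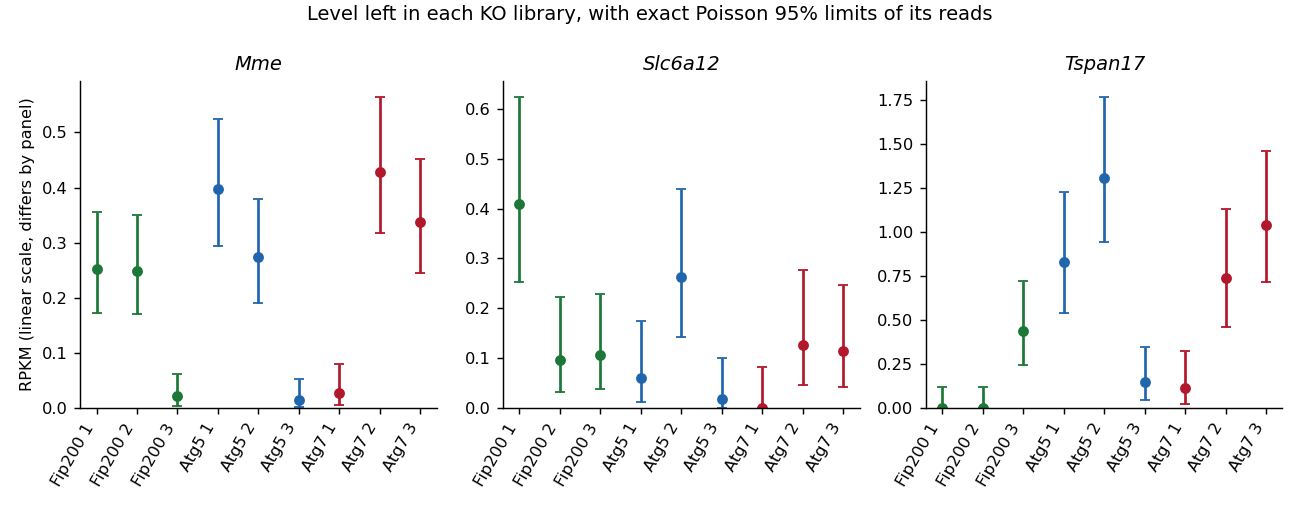
RPKM of the 3 genes in each of the 9 KO libraries on linear axes that differ by panel, with bars for the exact Poisson 95% limits of the reads. Mme is at 0.0272 RPKM or less in the third Fip200 KO, the third Atg5 KO and the first Atg7 KO library and at 0.249 RPKM or more in the other 6, and Tspan17 is at 0 in Fip200 KO 1 and 2.

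In control cells the genes were of middling level, with mean RPKM above those of 69.8% (Mme), 66.6% (Slc6a12) and 69.7% (Tspan17) of listed genes. Mme was steady between the control libraries, with an SD of 0.22 on the log2 scale, close to the median of 0.20 over 3469 genes with control means of 10 to 30 RPKM. Slc6a12 and Tspan17 varied more, with SDs of 0.52 and 0.54, larger than those of 91.2% and 91.8% of these genes. The highest control was 1.36 times the lowest for Mme, 2.07 times for Slc6a12 and 2.13 times for Tspan17. Control 2 held the highest value of Slc6a12 and Tspan17 and the lowest of Mme.

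**Figure D3:**
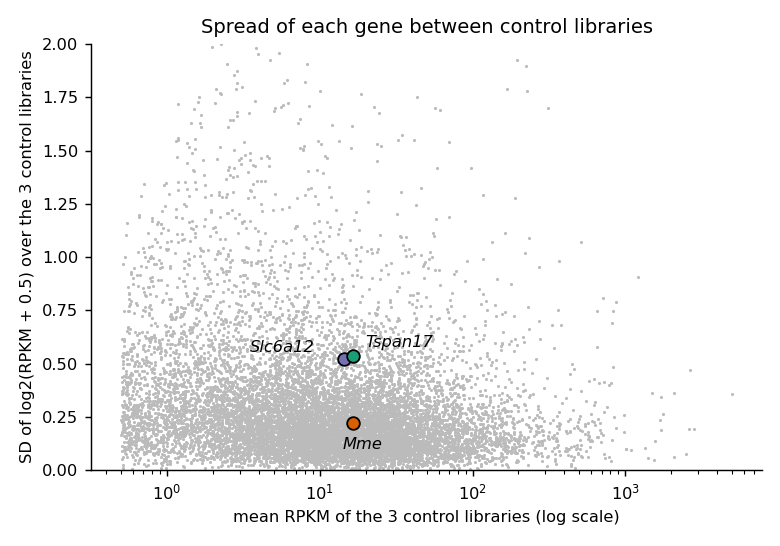
SD of log2(RPKM + 0.5) over the 3 control libraries against their mean RPKM (log axis) for 11800 genes, with the 3 members marked and 48 genes of SD above 2 outside the axis. Mme lies at an SD of 0.22, within the dense cloud of genes of its level, and Slc6a12 and Tspan17 lie above it at 0.52 and 0.54.

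Few other genes had this shape. Of 5482 genes at 10 RPKM or more in each control library, 5 were at 1.5 RPKM or less in each KO library, limits that were set after the values were seen. They were Mme, Slc6a12, Tspan17, Npy (neuropeptide Y) and Igf2r (the receptor that takes IGF2 and mannose 6-phosphate proteins to lysosomes). A limit of 5 RPKM in the KO libraries added Cdkn1c, Pip5k1b and Lmo7, for a total of 8. No gene had the opposite shape, at most 1.5 RPKM in each control and at least 10 RPKM in each KO library.

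The genes whose levels followed those of the members most closely were ranked by the Pearson correlation of log2(RPKM + 0.5) over the 12 libraries, among 12233 genes. For Mme these were Npy (r = 0.981), Anapc10 (0.980), Vip (0.980), Slc6a12 (0.980) and Pla2g12b (0.979). For Slc6a12 they were Mal (0.991), Mme (0.980), Igf2r (0.977), Aldh1l1 (0.976) and Lrfn1 (0.975). For Tspan17 they were Tom1 (0.974), Trerf1 (0.964), Anapc10 (0.962), Lefty1 (0.960) and Cadm4 (0.957), with Mme at rank 10 and Slc6a12 at rank 22. These values describe mainly the gap between 3 high control libraries and 9 low KO libraries. Over the 9 KO libraries alone, r was 0.41 between Mme and Slc6a12, 0.49 between Mme and Tspan17 and 0.056 between Slc6a12 and Tspan17, at 2 to 50 reads of Mme, 0 to 21 of Slc6a12 and 0 to 42 of Tspan17. Tom1, an adaptor of endosomal sorting, was at 38.4 to 42.9 RPKM in control and 10.5 to 16.9 in KO libraries, and its r with Tspan17 over the 9 KO libraries was 0.77.

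The genes beside the members on the chromosome did not share the size of their decrease. Of the 5 listed genes on each side in RefSeq order, 7 next to Mme were tested in each comparison and limma called none, with log2 fold changes between −0.99 and 0.38 and an unadjusted p under 0.05 for 0, 2 and 1 of them. Limma-voom on recovered reads called 1 of the 7, E130311K13Rik, lower in Atg5 and Atg7 KO cells. Gpr149, the nearest listed gene before Mme, had −0.33, −0.91 and 0.017, and Plch1, the nearest after it, was below the filter. None of the 7 or 8 tested genes around Slc6a12 was called by limma or limma-voom (unadjusted p under 0.05 for 0, 2 and 1), and its nearest neighbours Usp18 (−0.57, 0.24 and 0.74) and M6pr (0.34, 0.075 and 0.048) were at or above 14.0 RPKM in every library. Slc6a13, the paralog of Slc6a12 that lies next to it, has no row in the tables. Around Tspan17, 9 genes were tested, and Higd2a in Fip200 KO (−1.24, adjusted p = 0.0997 from limma) and Cltb in Atg5 KO cells (−1.20, adjusted p = 0.00478) were called lower. Limma-voom called Cltb but not Higd2a (adjusted p = 0.114). Rnf44, directly before Tspan17, had −0.39, −0.25 and −0.40, and Unc5a, directly after it, was below the filter.

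**Figure D4:**
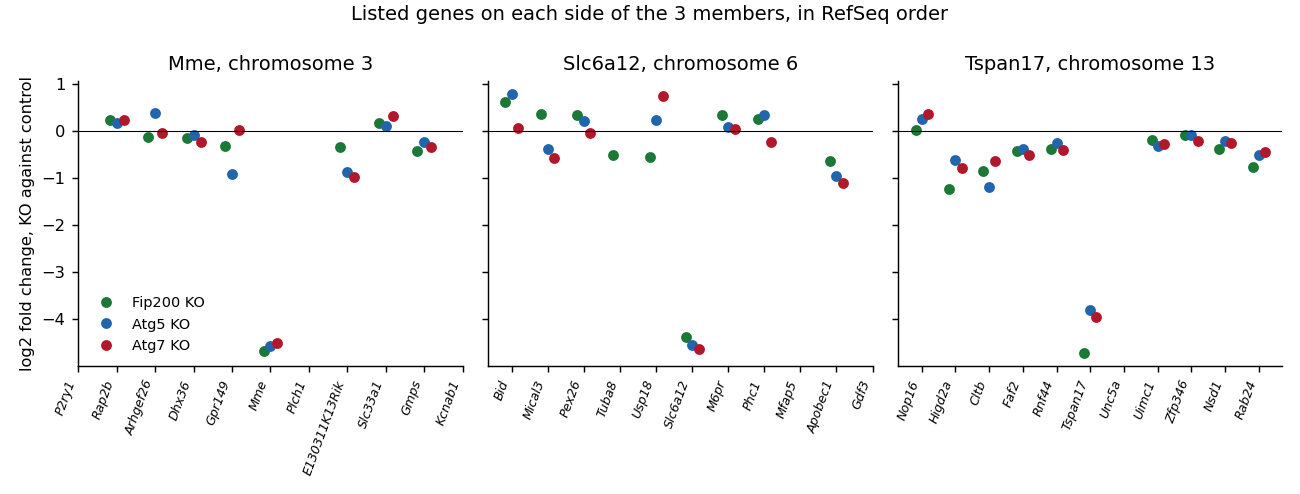
Log2 fold changes in the 3 KO lines for each member and the 5 listed genes on each side of it in RefSeq order, with no point where a gene was below the filter. The neighbours lie between −1.24 and 0.78, and the members between −4.72 and −3.81.

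Genes that work with the members were read from lists of families and functions chosen with earlier results of these data known. Of 118 listed genes in 10 lists, 83, 80 and 82 were tested in Fip200, Atg5 and Atg7 KO cells. Fip200 KO cells had 6 of these called lower and 1 higher, Atg5 KO cells 16 and 6, and Atg7 KO cells 19 and 3, with median log2 fold changes of −0.20, −0.082 and −0.16. That was 7.23%, 20% and 23.2% of the tested list called lower, beside 1.64%, 6.94% and 6.81% of all genes, and 1.20%, 7.50% and 3.66% called higher, beside 0.347%, 4.31% and 3.29%. With the prefix term the 22 calls in Atg5 KO cells became 9 and the 22 in Atg7 KO cells became 2. The Fip200 KO calls changed with the library left out, where each fit also had fewer samples. Without control 2 or control 3 none of these genes and no gene at all was called by limma, although 1103 and 913 genes had an unadjusted p under 0.05, and without Fip200 KO 3 there were 14 calls in the lists. Npy and Vip were not tested without a control library, since too few libraries then reached the filter. The cause of these changes was not tested.

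For Mme, no other M13 peptidase was called by limma or limma-voom, with an unadjusted p under 0.05 for 1 in each comparison. Ece2 was higher in Atg5 KO (0.48, adjusted p = 0.0924 from limma) and Atg7 KO cells (0.76, adjusted p = 0.0624), but under the fold threshold. It had 0.69 in Fip200 KO cells (adjusted p = 0.254). Ece1, the endothelin-converting enzyme and the family member of highest level, averaged 194 RPKM in control and 158, 217 and 174 in the KO cells among the 2 or 3 tested members. Cck and Npy, the genes of lowest fold change in any of the lists, encode peptides that neprilysin cleaves. Of 8, 7 and 8 tested substrates, 3 were called lower in each comparison, namely Cck (cholecystokinin), Npy and Vip (vasoactive intestinal peptide). That was 37.5%, 42.9% and 37.5% of the tested substrates, beside 1.64%, 6.94% and 6.81% of all genes. In Fip200 KO cells the Cck call (−6.64, adjusted p = 0.0867 from limma), from controls of 59.6, 611 and 271 RPKM, was lost with limma-voom (adjusted p = 0.154), although the fold change was no smaller there, at −8.18. Vip was at 5.51 to 7.59 RPKM in control and 0.108 to 0.478 RPKM in KO libraries, with log2 fold changes of −3.13, −3.12 and −3.17. Vip and, in Fip200 and Atg7 KO cells, Npy passed the filter on low values through the control libraries alone. Their calls there are therefore not read as a result. Adm (adrenomedullin, a vasodilator peptide) went the other way and was called higher in Atg5 KO (1.48, adjusted p = 0.00635 from limma) and Atg7 KO cells (2.14, adjusted p = 0.00416), with 1.32 in Fip200 KO cells (adjusted p = 0.139). All 7 tested receptor genes of these peptides had fold changes below 0 in Fip200 and Atg7 KO cells, and 6 of 7 did in Atg5 KO cells, where medians were −1.19, −1.33 and −1.38 in that order. Of the 7 receptors, 1, 4 and 5 were called lower in Fip200, Atg5 and Atg7 KO cells, and none was called higher. That was 14.3%, 57.1% and 71.4% of the tested receptors, beside 1.64%, 6.94% and 6.81% of all genes. Ramp3, which turns the receptor Calcrl into an adrenomedullin receptor, was called in all 3 (−3.28, −2.51 and −3.45, limma adjusted p = 0.0985, 0.00925 and 0.0232). Ednrb, the endothelin B receptor gene, was called in Atg5 KO (−2.17, adjusted p = 0.0495 from limma) and Atg7 KO cells (−4.06, adjusted p = 0.00809), with −3.55 in Fip200 KO cells (adjusted p = 0.216). Npr2, a natriuretic peptide receptor gene (−1.38 and −2.15), and Ramp2, a relative of Ramp3 (−1.38 and −1.33), were called in Atg5 and Atg7 KO cells with limma adjusted p of at most 0.0784, and had −1.72 and −1.11 in Fip200 KO cells (adjusted p = 0.191 and 0.188). Among the other peptidases, Anpep, a membrane enzyme, was called in Atg5 and Atg7 KO cells (−2.75 and −3.01, limma adjusted p = 0.0124 and 0.0144), with −2.04 in Fip200 KO cells (adjusted p = 0.160). Prcp, a lysosomal peptidase gene, was called in Atg7 KO cells (means of 32.5 RPKM in control and 15.7 in Atg7 KO cells, adjusted p = 0.0389 from limma), with log2 fold changes of −1.01 in Fip200 KO and −0.12 in Atg5 KO cells (adjusted p = 0.328 and 0.684). Ace, the angiotensin-converting enzyme gene and a membrane peptidase as well, went the other way and was called higher in Atg5 KO cells (1.42, adjusted p = 0.0688 from limma), had 0.97 in Atg7 KO cells (adjusted p = 0.300) and was below the filter in Fip200 KO cells.

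For Slc6a12, no relative or osmolyte gene had a decrease of its size. Slc6a6, which imports the osmolyte taurine, averaged 29.8 RPKM in control and 38.7, 33.7 and 38.7 in the KO cells, and Slc5a3, the inositol importer, averaged 39.7 and 22.7, 16.1 and 17.8, without a call for either. The control mean of Slc5a3 rested on control 2, since the 3 controls were at 22.9, 74.9 and 21.4 RPKM. Of 4 or 5 tested Slc6 genes the creatine transporter Slc6a8 was called lower in Atg5 KO cells (−1.48, adjusted p = 0.00893 from limma), and had −0.85 in Fip200 KO cells (adjusted p = 0.506). Its −0.81 in Atg7 KO cells was under the fold threshold (limma adjusted p = 0.0888). Among 13 tested osmolyte and cell volume genes, Sgk1, a kinase of salt balance (−1.33 and −1.08), and Lrrc8e, a subunit of the volume-regulated anion channel (−1.33 in both), were called lower in Atg5 and Atg7 KO cells with limma adjusted p of at most 0.0185, and none was called in Fip200 KO cells. Sgk1 and Lrrc8e had fold changes of similar size there, at −1.61 (adjusted p = 0.101 from limma) and −1.30 (adjusted p = 0.141), and 3 genes of the list had an unadjusted p under 0.05. The calls in Atg5 and Atg7 KO cells were 15.4% of the tested list in each, beside 6.94% and 6.81% of all genes. No gene of the list was called higher. The median of that list was above 0 in each comparison, at 0.081, 0.17 and 0.18. No gene of betaine or GABA metabolism was called by limma or limma-voom (unadjusted p under 0.05 for 0, 1 and 0).

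For Tspan17, none of the 3 other TspanC8 genes tested was called by limma or limma-voom (unadjusted p under 0.05 for 0, 1 and 1). Tspan14 averaged 69.3 RPKM in control and 101, 65.7 and 43.4 in the KO cells and Tspan5 averaged 21.2 against 23.1, 26.2 and 21.6, both above the 16.5 RPKM of Tspan17 in control cells. The Fip200 KO mean of Tspan14 rested on Fip200 KO 1, at 169 RPKM against 82.6 and 51.0 in the other libraries. Their partner Adam10 was at 89.0 RPKM in control and 78.3, 76.4 and 71.8 in the KO cells. Of 19 other tetraspanins, 1, 4 and 6 were called lower and 0, 1 and 0 higher in Fip200, Atg5 and Atg7 KO cells. The lower calls were 5.26%, 21.05% and 31.6% of these tetraspanins, beside 1.64%, 6.94% and 6.81% of all genes. The higher call in Atg5 KO cells was 5.26%, near the 4.31% of all genes. Cd53 was called in Atg5 KO (−2.08, adjusted p = 0.00985 from limma) and Atg7 KO cells (−2.37, adjusted p = 0.0127), with −1.72 in Fip200 KO cells (adjusted p = 0.154). It was at most 0.381 RPKM in the Atg5 KO and 0.145 RPKM in the Atg7 KO libraries. There it passed the filter on low values through the control libraries alone. These Cd53 calls, which are part of the counts above, are therefore not read as a result. Cd81 was called in Fip200 KO (−1.57, adjusted p = 0.0266 from limma) and Atg7 KO cells (−1.14, adjusted p = 0.0179), and its −0.89 in Atg5 KO cells was under the fold threshold (adjusted p = 0.0112). Tspan13 was called in Atg5 KO (−1.69) and Atg7 KO cells (−2.97), with limma adjusted p of 0.0244 and 0.00809, and had −0.87 in Fip200 KO cells (adjusted p = 0.512). Tspan7 was called in Atg5 KO cells (−1.11, adjusted p = 0.0457 from limma), with −0.87 and −1.80 in Fip200 and Atg7 KO cells (adjusted p = 0.627 and 0.131). The gene called higher was Tspan6 in Atg5 KO cells (1.02, adjusted p = 0.0105 from limma), and its 0.88 in Atg7 KO cells was under the fold threshold (adjusted p = 0.0290). Among 15 tested genes of ADAM10 and its substrates, Cx3cl1 (fractalkine) was called lower and Met (a receptor kinase) higher in all 3 comparisons, with log2 fold changes from −2.29 to −1.89 for Cx3cl1 and up to 1.53 for Met and a largest limma adjusted p of 0.0679. Cx3cl1 was the 1 gene of that list called lower, whereas 1, 3 and 2 genes were called higher. The 1 lower call is 6.67% of the list, beside 1.64%, 6.94% and 6.81% of all genes, and the higher calls are 6.67%, 20% and 13.3%, beside 0.347%, 4.31% and 3.29%. Cdh5, also an endothelial marker, and the Notch receptor gene Notch4 (1.11, adjusted p = 0.0878 from limma) were called higher in Atg5 KO cells, and Cdh2, another cadherin gene, in Atg7 KO cells (1.12, adjusted p = 0.0212 from limma).

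**Figure D5:**
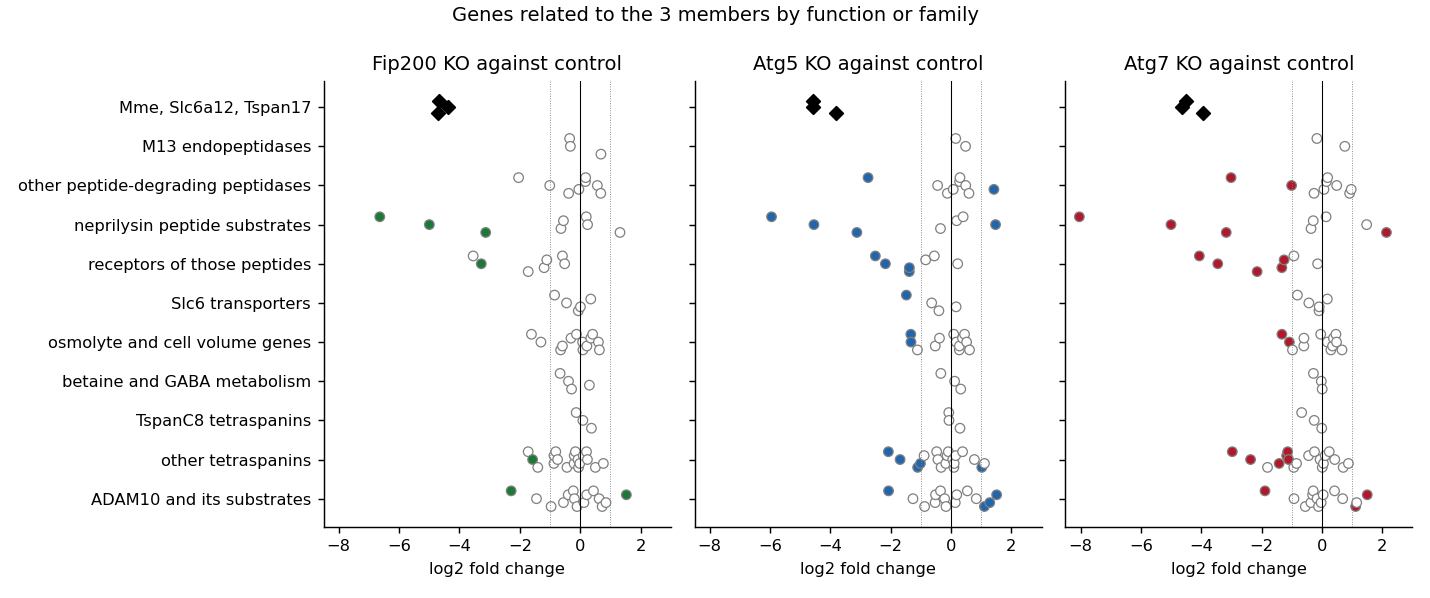
Log2 fold changes of the 3 members (black diamonds) and of the tested genes in 10 lists of related genes (circles, filled where called), with dotted lines at −1 and 1. The members lie between −4.72 and −3.81, beyond every gene of the Slc6, M13 and TspanC8 families, and Cck lies below all 3 in each panel.

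Markers of other cell types were read beside the members because neprilysin is also made by fibroblasts, epithelia and some blood cells. The 7 listed of 8 fibroblast and mural markers summed to 18.9 to 81.9 RPKM in control libraries, 16.2 to 289 without Fip200, 112 to 212 without Atg5 and 72.9 to 360 without Atg7. The gene with the largest part of that sum was Thy1 in 9 of the 12 libraries, Dcn in control 2 and 3 and Acta2 in Fip200 KO 3. Dcn, a fibroblast proteoglycan gene, was at 0.125, 56.9 and 15.3 RPKM in control 1, 2 and 3 and at 0.989 RPKM or less in the KO libraries, without a call in Fip200 or Atg5 KO cells (adjusted p = 0.328 and 0.182 from limma) and below the filter in Atg7 KO cells. Pdgfra (0.113, 9.02 and 2.26 RPKM in the controls) and Pdgfrb (0.0187, 4.19 and 0.261) had the same order over the controls as Dcn, were at 0.320 and 0.194 RPKM or less in the KO libraries and were below the filter. Other genes of the list went the other way, with Thy1 called higher in Atg5 KO (4.02, adjusted p = 0.00854 from limma) and Atg7 KO cells (4.32, adjusted p = 0.0207) and Acta2 in Atg5 KO cells (means of 1.39 RPKM in control and 4.13 in Atg5 KO cells, adjusted p = 0.0499). Thy1 in Fip200 KO cells was at 288, 228 and 0.210 RPKM (2.09, adjusted p = 0.658 from limma). In control 1, where Dcn was lowest of the controls, Mme was at its highest control value of 18.8 RPKM, Slc6a12 at 12.4 and Tspan17 at its lowest control value of 10.4. In control 2, where Dcn was highest, Mme was at its lowest control value and Slc6a12 and Tspan17 at their highest, and the order of Tspan17 over the 3 controls was that of Dcn. The 3 listed of 5 epithelial markers summed to 12.3 to 17.4 RPKM in control libraries, 1.56 to 27.6 without Fip200, 2.10 to 6.94 without Atg5 and 3.14 to 12.9 without Atg7. Of the 2 tested, Krt18 and Krt19, the medians were −0.99, −1.72 and −1.23, and Krt19 was called lower in Atg5 KO cells (−2.57, adjusted p = 0.00481 from limma). The 3 listed of 5 leukocyte markers summed to 34.6 to 91.9 RPKM in control libraries, 16.2 to 263 without Fip200, 10.1 to 11.8 without Atg5 and 7.11 to 27.3 without Atg7, nearly all of it Cd68, which was called lower in Atg5 KO (−2.26, adjusted p = 0.00640 from limma) and Atg7 KO cells (−1.70, adjusted p = 0.0798), while Ptprc was at or under 0.129 RPKM in every library. The part of these markers in the decreases of the 3 genes was not tested.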

How the data were processed

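The authors isolated RNA from cultured cells, prepared libraries with a directional kit, aligned reads with TopHat2, used Bioconductor packages to count reads for known transcripts, and compared groups with edgeR, and the aligner's genome build and the annotation are not given in the sources used here. The authors deposited 3 tables, 1 for each KO line against control, with RPKM values per library, group means of normalized signal, and their own fold changes and p-values, which were not used here. Whole reads were recovered from the deposited RPKM values and the authors' group means of counts divided by size factors, which set the scale of each gene. They came within 0.01 reads of a whole number for 14831 of 14831 genes with a value above 0, where 147 genes without control reads took their scale from a KO mean, and gave the library totals and counting limits. A gene entered a comparison when 3 or more of its 6 libraries reached 0.5 RPKM, and was fitted on log2(RPKM + 0.5) with limma 3.58.1 (R 4.3.3, moderated test with trend, tested on simulated data) with calls at a Benjamini-Hochberg adjusted p no larger than 0.1 and a 2-fold change or more on that scale. Groups and replicate numbers were taken from the sample titles. No pair of replicates was alike within counting noise (smallest chi-square per degree of freedom 8.19). The members and the gene lists were chosen with earlier results of these data known. Named genes were the members, the 5 most alike and the nearest neighbours of each, up to 4 called genes of each list with the largest mean change, and a few fixed relatives. Higd2a, Cltb, E130311K13Rik, Ece2, Tspan6, Cdh2, the marker genes named and the genes that shared the members' shape were named after their values were seen. Promoter windows and gene order came from RefSeq (GRCm38.p6), which held all 3 members, and gene spans from GENCODE vM21. Lists of related genes hold 160 genes, of which 118 are listed. Alternatives were other pseudocounts, filters, scaling and models, a prefix term, a replicate block, limma-voom on the recovered reads and leaving out each library.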

Additional observations from a re-analysis of the deposited data

How the results depend on the processing

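The log2 fold changes of Mme, Slc6a12 and Tspan17 ranged from −8.34 to −2.98 over the alternatives. Their sign is no sign of stability, since the genes were selected on these values, and a difference of group means cannot move under another filter, the fit to 12 libraries or the replicate block. The size follows the pseudocount, since the KO values are near 0. In the order Fip200, Atg5 and Atg7 KO, a pseudocount of 0.1 gave −6.07, −5.90 and −5.74 for Mme, −5.66, −6.19 and −6.36 for Slc6a12 and −6.49, −4.52 and −4.75 for Tspan17. A pseudocount of 1 gave −3.90, −3.84 and −3.80 for Mme, −3.63, −3.74 and −3.78 for Slc6a12 and −3.89 for Tspan17 in Fip200 KO cells. Limma-voom on the recovered reads gave −7.15, −7.06 and −6.58 for Mme, −6.35, −7.45 and −7.89 for Slc6a12 and −8.34, −4.82 and −5.04 for Tspan17. The prefix term gave −3.72 for Mme in Atg7 KO and −4.14 and −2.98 for Tspan17 in Fip200 and Atg7 KO cells. Without 1 library the values ranged, in the same order, from −4.79 to −4.49, −4.74 to −4.34 and −4.67 to −4.26 for Mme, from −4.59 to −4.08, −4.78 to −4.27 and −4.85 to −4.34 for Slc6a12, and from −5.02 to −4.48, −4.13 to −3.39 and −4.24 to −3.55 for Tspan17. These were taken as differences of means, because without a control library Mme and Slc6a12, and Tspan17 in Fip200 KO cells, no longer reach 0.5 RPKM in 3 libraries.

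Counts over all genes moved more. The 234 calls in Fip200 KO cells became 146 with no filter, 608 in 1 fit to all 12 libraries, 47 with the prefix term and 0 to 598 without 1 library. The 1331 in Atg5 KO cells became 663 with the prefix term and 985 to 1502 without 1 library, and the 1191 in Atg7 KO cells became 38 with the prefix term and 576 to 1514 without 1 library. The lowest of these came without control 2 or control 3 for Fip200 KO, without control 2 for Atg5 KO and without control 3 for Atg7 KO cells. Among related genes, the 7 calls in Fip200 KO cells became 15 in the fit to 12 libraries, 3 with the prefix term and 0 to 14 without 1 library, the 22 in Atg5 KO cells 9 and 14 to 23, and the 22 in Atg7 KO cells 2 and 11 to 22. The cause was not tested. With the replicate block, Fip200 KO cells had 93 calls, 4 of them in related genes, and Atg5 and Atg7 KO cells 1322 and 1071. The replicate numbers did not pair the samples, since same-numbered control and KO libraries had deviations with correlations between −0.218 and 0.0767. By Spearman correlation, none of the 5 genes most alike to each member by Pearson correlation was among the first 5. At 17266926 to 23629730 reads per library, 3 reads corresponded to 0.0199 to 0.112 RPKM of the 3 genes, so differences among KO libraries near that level were not detectable.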
